A study of Arabidopsis thaliana with 21 samples.

Results

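The 10 genes described here encode gibberellin oxidases of Arabidopsis thaliana, 5 that make active gibberellin and 5 that break it down. They were set by name and TAIR10 locus, but with earlier results of these data known. They are 10 of the 27444 protein-coding genes on the 5 nuclear chromosomes. For each gene, every deposited region of FIE, AZF1, BPC1 and H3K27me3 that touches it or lies within 3 kb of it was taken. The synthesis genes were GA20OX1 (AT4G25420), GA20OX2 (AT5G51810), GA20OX3 (AT5G07200), GA3OX1 (AT1G15550) and GA3OX2 (AT1G80340). The breakdown genes were GA2OX1 (AT1G78440), GA2OX2 (AT1G30040), GA2OX6 (AT1G02400), GA2OX7 (AT1G50960) and GA2OX8 (AT4G21200).

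Gibberellins are diterpenoid hormones that promote germination, stem elongation and flowering. GA20OX enzymes oxidise inactive precursors stepwise, GA3OX enzymes then make the active hormone, and GA2OX enzymes inactivate it or remove its precursors. GA2OX1, GA2OX2 and GA2OX6 act on the hormone and its late precursors, while GA2OX7 and GA2OX8 act on earlier precursors that carry one more carbon atom. The hormone is perceived by GID1 receptors, which then lead to the destruction of DELLA proteins, the repressors of gibberellin responses. Polycomb repressive complex 2 (PRC2), of which FIE is a subunit, trimethylates histone H3 at lysine 27 (H3K27me3), a mark of silenced developmental genes. AZF1 is a zinc finger protein, and BPC1 is a BASIC PENTACYSTEINE protein that binds GA repeats.

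The study used chromatin immunoprecipitation with sequencing (ChIP-seq) on whole plants aged 30 h, kept under a cycle of 16 h light and 8 h dark, in 7 groups of 3 samples labelled as biological replicates. FIE was precipitated with an anti-HA antibody from C24 plants carrying pFIE:FIE-HA in fie-11, in which the tagged protein is driven by the FIE promoter, and AZF1 and BPC1 with an anti-Myc antibody from Col plants carrying gAZF1-Myc or gBPC1-Myc. H3K27me3 was precipitated from Col plants with no transgene. The controls were C24 input from the pFIE:FIE-HA line, Col input from the gAZF1-Myc line, and total H3 from Col with no transgene. Whole plants mix cell types, so a low fold in many cells and a high fold in few cells cannot be told apart. FIE was measured in C24 and the other proteins and the mark in Col, so accession and protein cannot be told apart wherever FIE is set beside another list.

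The data are 4 lists, 1 per protein or mark, with 5006 FIE, 4464 AZF1, 2622 BPC1 and 3940 H3K27me3 regions on the nuclear chromosomes. Each region has 1 value and no value per replicate, so neither an SD nor a test between replicates could be given, and all comparisons below are descriptions. The fold enrichment of a region is the authors' value over its control and is read only within its own list, where the medians are 4.70 for FIE, 2.92 for AZF1, 2.94 for BPC1 and 2.98 for H3K27me3. No listed region has a −log10 q under 10, and read counts are not given. A gene without a region is therefore one without a listed region, and the depth behind each fold is unknown. The gene table used carries no strand, so sides of a gene are given as lower or higher coordinates and not as upstream or downstream.

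FIE regions lay near more breakdown than synthesis genes in count, and H3K27me3 regions near more synthesis than breakdown genes, while the factors were split evenly. FIE had a region within 3 kb of 2 of 5 synthesis genes (GA20OX2 and GA3OX2) and of 4 of 5 breakdown genes (GA2OX1, GA2OX6, GA2OX7 and GA2OX8), where 17.0% of all protein-coding genes had one. H3K27me3 had a region within 3 kb of 4 of 5 synthesis genes (GA20OX1, GA20OX2, GA20OX3 and GA3OX2) and of 2 of 5 breakdown genes (GA2OX7 and GA2OX8), against 36.7% of all genes. AZF1 and BPC1 each had a region at 1 synthesis gene, GA20OX2, and at 1 breakdown gene, GA2OX6, against 17.8% and 10.5% of all genes. The factor counts, 2 of 10 each, are near these background shares. With 5 genes a side these counts differ by 2 genes, and no difference between the classes was tested.

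**Figure D1:**
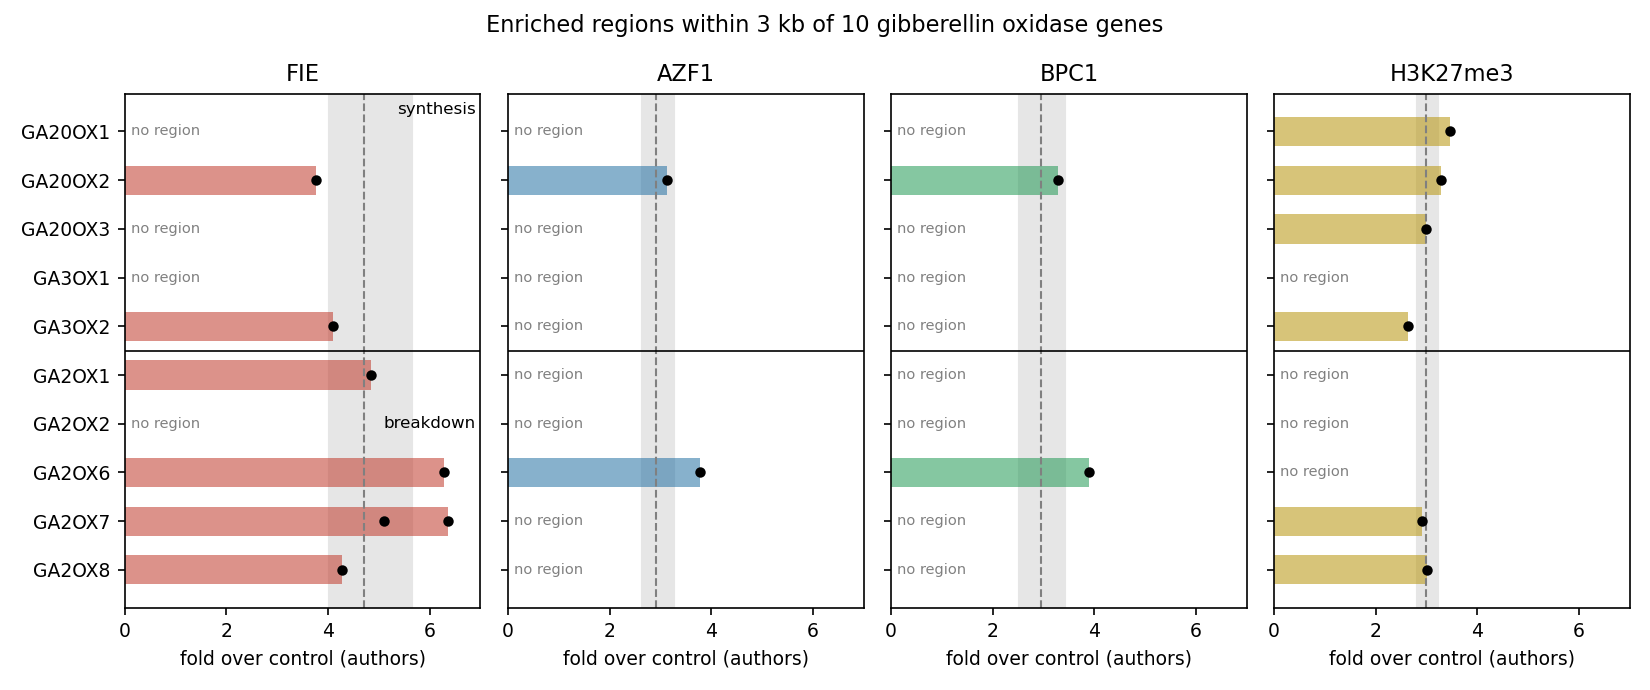
Fold enrichment over control of every region within 3 kb of the 10 genes (x axes) in the 4 lists (panels), with synthesis genes above the line and breakdown genes below it. Points are single regions, bars reach the highest, the dashed line is the median of the whole list and the grey band spans its quartiles; GA2OX6 and GA2OX7 have the highest FIE folds, 6.27 and 6.37.

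The class counts depended on the reach around the gene. Counting regions that share a base with the gene itself, FIE was at 1 of 5 synthesis and 3 of 5 breakdown genes (6.72% of all genes), and H3K27me3 was at 2 of 5 in each class (19.3%). So the higher H3K27me3 count of the synthesis genes came from GA20OX1 and GA20OX2, whose domains lie beside the gene. Neither AZF1 nor BPC1 touched any of the 10 genes, where 6.7% and 4.3% of all genes were touched. Within 1 kb, FIE was at 2 synthesis and 3 breakdown genes (9.95% of all genes) and H3K27me3 at 2 and 2 (27.3%). At that reach AZF1 and BPC1 remained at 1 synthesis gene, GA20OX2, and at 0 breakdown genes (10.2% and 6.07% of all genes). Within 5 kb, FIE was at 3 synthesis and 4 breakdown genes (23.5% of all genes), and H3K27me3 at 4 synthesis and 3 breakdown genes (44.9%). AZF1 was then at 1 gene of each class (24.9%), and BPC1 at 2 synthesis genes and 1 breakdown gene (14.9%).

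**Figure D2:**
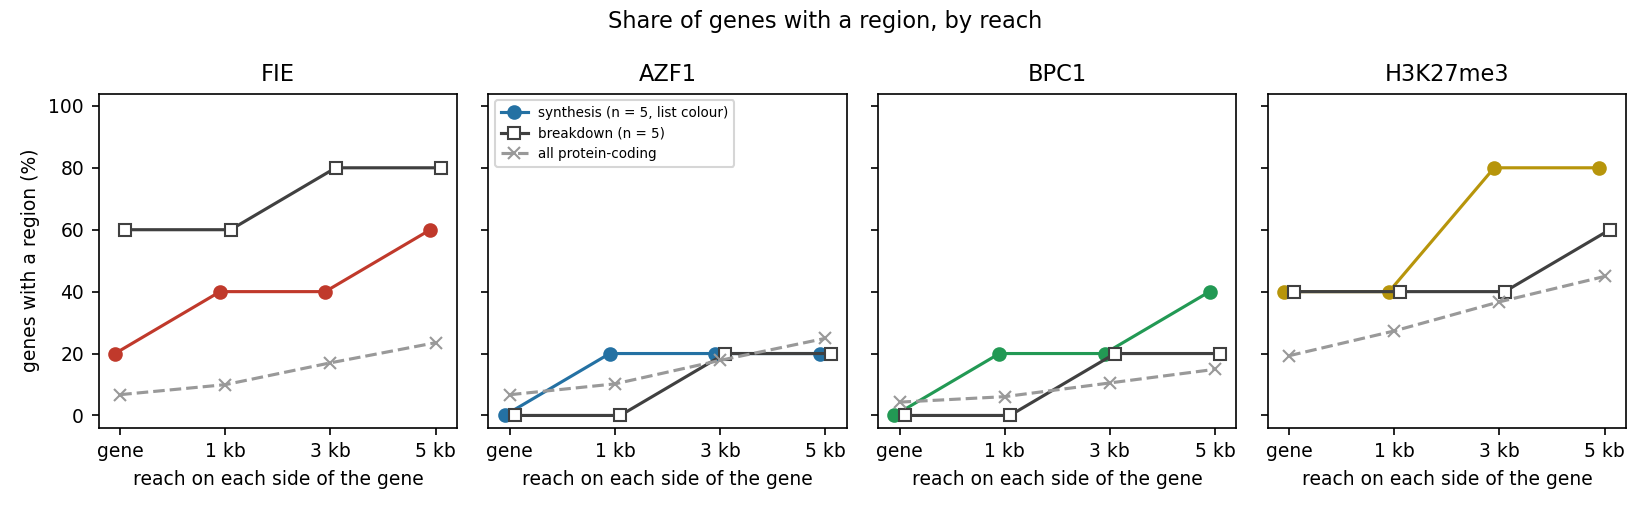
Share of genes with a region (y axis, percent) in each list against the reach on each side of the gene (x axis), for 5 synthesis genes, 5 breakdown genes and all 27444 protein-coding genes. For FIE the breakdown genes stand above the synthesis genes at each reach, from 1 synthesis and 3 breakdown genes touched to 3 synthesis and 4 breakdown genes within 5 kb; for H3K27me3 the classes are equal at the gene and at 1 kb.

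Among the synthesis genes, the GA20OX genes carried the mark in or beside them, each in a different layout. GA20OX1, whose loss gives the semi-dwarf ga5 plant, had a 4294 bp H3K27me3 region (chromosome 4, 12985220 to 12989513) that ended 1338 bp from the gene on its lower side. Its fold of 3.47 ranked 400 of 3940. The domain touched 1 protein-coding gene, the neighbour AT4G25410, which is nearer to its midpoint than GA20OX1. A 2750 bp FIE region (12985089 to 12987838, fold 7.67, rank 407 of 5006) and a BPC1 region (12986117 to 12986755, fold 2.78) overlapped the same domain. They lay 3013 and 4096 bp from GA20OX1, the FIE region just outside the 3 kb reach.

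GA20OX2 was the sole member with regions of all 4 lists within 3 kb, a pattern of 2.58% of protein-coding genes, and none of its regions touched the gene. The FIE region (chromosome 5, 21054671 to 21054789) had a fold of 3.77, which ranked 4199 of 5006. AZF1 (21054678 to 21054785) had a fold of 3.12, rank 1524 of 4464, and BPC1 (21054670 to 21054786) one of 3.29, rank 798 of 2622. The nearest edges of all 3 were 390 to 394 bp from the lower end of the gene, and their summits 433 to 472 bp. The H3K27me3 region was a domain of 20543 bp (21033458 to 21054000, fold 3.28, rank 810 of 3940) that ended 1179 bp from the gene and 671 bp short of the FIE region.

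The domain beside GA20OX2 covered neighbouring genes and not GA20OX2 itself. It touched 4 other protein-coding genes, and 5 genes were nearer to its midpoint than GA20OX2 (AT5G51795, AT5G51790, AT5G51800, AT5G51780 and AT5G51770). Inside it lay 6 FIE, 3 AZF1 and 5 BPC1 regions. The highest FIE region there had a fold of 10.1 (rank 133 of 5006) and the highest BPC1 region one of 5.40 (rank 40 of 2622), at 9190 and 9426 bp from GA20OX2. The FIE fold beside the gene, 3.77, was below those of all 6 FIE regions in the domain, which began at 4.46.

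GA20OX3 had the mark on the gene and no FIE, AZF1 or BPC1 region within 3 kb. This pattern, H3K27me3 alone, was shared with GA20OX1 and found at 20.2% of protein-coding genes. Its H3K27me3 region of 1946 bp (chromosome 5, 2243562 to 2245507, fold 3.00, rank 1895 of 3940) covered 99.5% of the gene and no other protein-coding gene lay within 3 kb of the region. The nearest FIE region was 5295 bp from the gene, with a fold of 5.34, and the nearest AZF1 and BPC1 regions were 9968 and 9979 bp away.

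The GA3OX genes, which catalyse the last step to active hormone and act in germinating seeds, differed from each other. GA3OX1 had no region of any list within 3 kb, as 48.8% of protein-coding genes. Its nearest regions were AZF1 at 16541 bp, H3K27me3 at 21244 bp, BPC1 at 23686 bp and FIE at 45585 bp. GA3OX2 had a FIE region of 138 bp (chromosome 1, 30202305 to 30202442) with a fold of 4.11, rank 3592 of 5006, that spanned the higher end of the gene, and its summit lay 55 bp outside. The FIE region sat wholly inside an H3K27me3 region of 1285 bp (30201565 to 30202849) that covered 41.7% of the gene. That region was among the weakest of its list, with a fold of 2.63 (rank 3840 of 3940) and a −log10 q of 10.02, where the list's floor is 10.

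**Figure D3:**
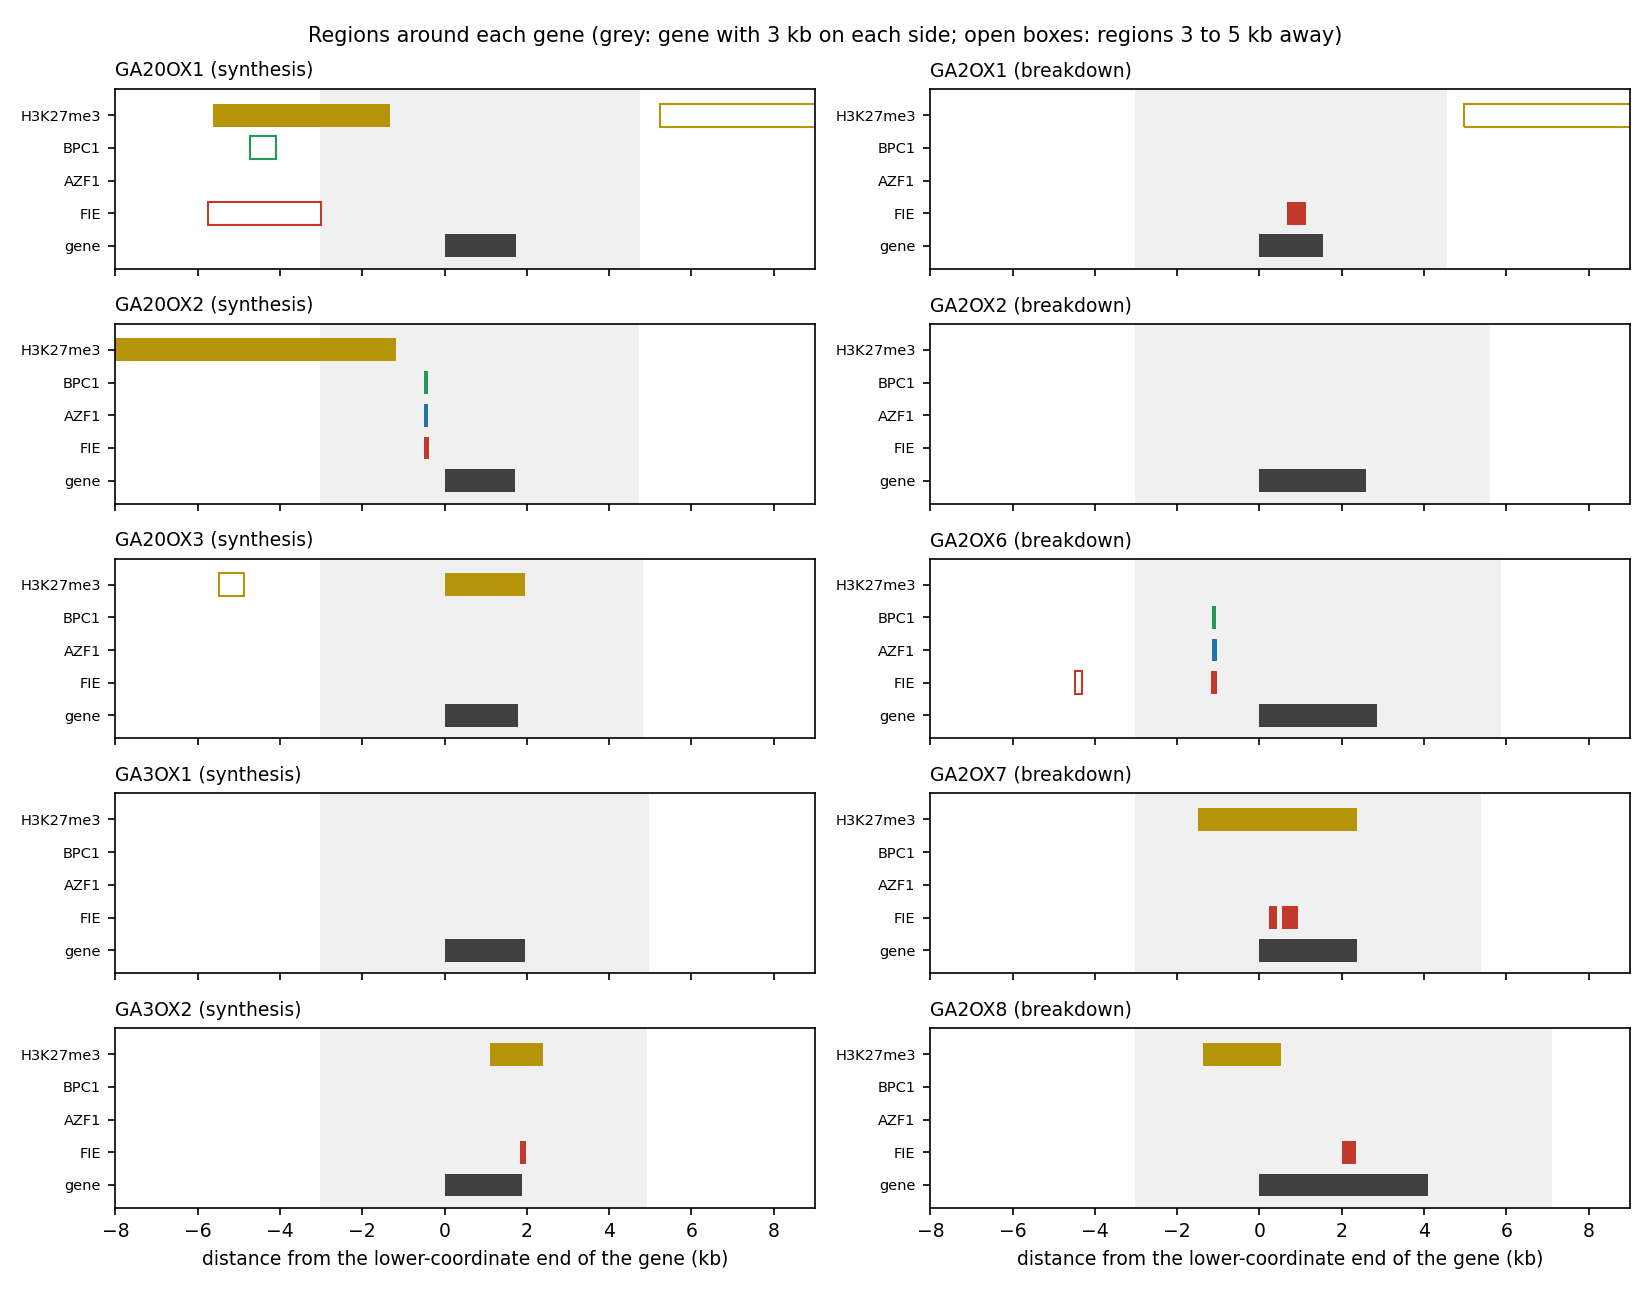
Regions around each of the 10 genes, with synthesis genes on the left and breakdown genes on the right, by distance from the lower-coordinate end of the gene in kb (x axis) and by list (y axis). Filled boxes lie within 3 kb (grey) and open boxes 3 to 5 kb away; the domain beside GA20OX2 runs past the left edge, to a width of 20543 bp, and GA3OX1 and GA2OX2 have no box.

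Of the breakdown genes that act on active hormone, each had a different set of regions. GA2OX1 had a FIE region of 448 bp inside the gene (chromosome 1, 29512237 to 29512684) with a fold of 4.84, rank 2214 of 5006, and no other region within 3 kb, as 3.09% of protein-coding genes. An H3K27me3 region of 6850 bp began 3427 bp from GA2OX1 (fold 2.82). GA2OX2, known for lowering gibberellin in imbibed seeds kept in the dark, had no region of any list within 3 kb. Its nearest was H3K27me3 at 11671 bp, followed by FIE at 24399 bp, AZF1 at 92408 bp and BPC1 at 153092 bp.

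GA2OX6, also called DTA1 as a downstream target of the MADS protein AGL15, had FIE, AZF1 and BPC1 together and no mark. This pattern was found at 0.907% of protein-coding genes. The FIE region (chromosome 1, 485615 to 485767) had a fold of 6.27 and ranked 861 of 5006. AZF1 (485641 to 485758) had a fold of 3.79, rank 319 of 4464, and BPC1 (485643 to 485749) one of 3.90, rank 285 of 2622. For each factor this was the higher of its folds at the 10 genes. The regions lay 1033 to 1051 bp from the lower end of the gene, which is the nearest protein-coding gene to all 3 summits. The nearest H3K27me3 region was 13380 bp from the gene.

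The genes for enzymes of the earlier precursors, GA2OX7 and GA2OX8, both carried FIE inside the gene together with H3K27me3, and neither had AZF1 or BPC1. This pattern, shared with GA3OX2, was found at 6.3% of protein-coding genes. GA2OX7 was the sole member with more than 1 FIE region. The first (chromosome 1, 18889700 to 18889904) had a fold of 6.37, the highest FIE fold of the 10 genes, rank 798 of 5006. Its −log10 q was 18.7, below the 32.0 of the FIE region of GA2OX6. The second (18890023 to 18890418) had a fold of 5.10, rank 1798. Both lay inside an H3K27me3 region of 3865 bp (18887969 to 18891833, fold 2.92, rank 2286 of 3940) that covered 99.8% of GA2OX7 and had no other protein-coding gene within 3 kb.

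GA2OX8 had FIE and the mark at different places of the gene. The FIE region of 344 bp (chromosome 4, 11304684 to 11305027) lay inside the gene, with a fold of 4.27, rank 3304 of 5006, and a −log10 q of 10.3. The H3K27me3 region of 1879 bp (11301321 to 11303199, fold 3.01, rank 1837 of 3940) spanned the lower end and covered 12.7% of the gene. They were 1485 bp apart. The nearest AZF1 and BPC1 regions were 73776 and 73775 bp from GA2OX8.

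GA20OX2 and GA2OX6, a synthesis and a breakdown gene, had the factors in the same form, as narrow regions of FIE, AZF1 and BPC1 with nearly the same ends. At GA20OX2 FIE, AZF1 and BPC1 spanned 119, 108 and 117 bp, and at GA2OX6 153, 118 and 107 bp. The median widths of these lists are 267, 144 and 157 bp, and their shortest regions span 109, 97 and 97 bp. Regions near that floor whose summits are close also have close ends. The BPC1 summit was 2 bp from the FIE summit at GA20OX2 and 5 bp at GA2OX6, and the AZF1 summit 39 and 14 bp. Both stacks lay outside H3K27me3.

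Such stacks are common in the FIE list. Of 5006 FIE regions, 27.8% overlapped AZF1, 23.5% BPC1 and 15.3% both, and of these 765 regions 52.2% lay outside H3K27me3. Both factor summits were within 50 bp of the FIE summit in 90.8% of the 765. Narrow ones were fewer, since 15.3% of the 765 were no wider than the 153 bp at GA2OX6, and the median width was 304 bp.

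**Figure D4:**
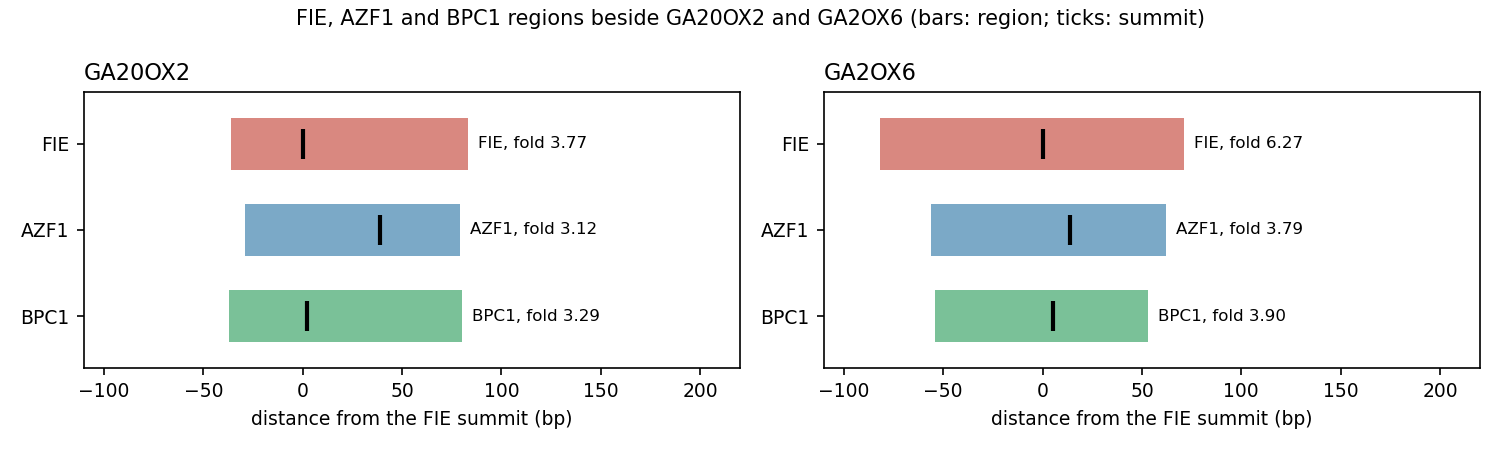
FIE, AZF1 and BPC1 regions (rows) beside GA20OX2 and GA2OX6 by distance from the FIE summit in bp (x axis). Bars span the regions and ticks mark the summits; the BPC1 summit stands 2 bp from the FIE summit at GA20OX2 and 5 bp at GA2OX6, and the AZF1 summit 39 and 14 bp.

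FIE regions within 3 kb of the 10 genes met the mark at GA3OX2 and GA2OX7 and nowhere else. This is 3 of 7 FIE regions, where 49.7% of all FIE regions overlapped H3K27me3. By class it is 1 of 2 FIE regions at synthesis genes and 2 of 5 at breakdown genes. The FIE region 3013 bp from the synthesis gene GA20OX1, just outside the reach, also overlapped H3K27me3 and is not among the 7. The FIE regions of GA20OX2, GA2OX1, GA2OX6 and GA2OX8 lay 671, 3843, 12195 and 1485 bp from the nearest H3K27me3 region. Of the 7 FIE regions, 5 touched the gene, and 4 of these lay wholly within it, all at breakdown genes. By summit, 4 of 7 were inside the gene. Over the whole list, which is not limited to regions within 3 kb of a gene, 41.6% of FIE summits fell inside a protein-coding gene.

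The members' regions were spread over the FIE and H3K27me3 lists, while both AZF1 and both BPC1 regions were above their list medians of fold. By −log10 q the AZF1 region of GA20OX2 (13.0) was below its list's median of 13.2. FIE folds ran from 3.77 to 4.11 at the synthesis genes and from 4.27 to 6.37 at the breakdown genes, with medians of 3.94 (2 regions) and 5.10 (5 regions) beside the list's 4.70. Both FIE regions at synthesis genes were below the list median of fold and 4 of 5 at breakdown genes were above it. GA2OX7 gave 2 of those 5 regions. By −log10 q, where the FIE median is 15.5, both synthesis regions were again below. So were the second region of GA2OX7 (12.2) and that of GA2OX8 (10.3). A FIE region 3013 bp from the synthesis gene GA20OX1, just outside the 3 kb reach, had a fold of 7.67, above the folds of all of these regions. H3K27me3 folds ran from 2.63 to 3.47 at the synthesis genes and from 2.92 to 3.01 at the breakdown genes. The medians were 3.14 (4 regions) and 2.96 (2 regions) beside the list's 2.98. The higher synthesis folds, 3.47 at GA20OX1 and 3.28 at GA20OX2, are of domains that do not touch the gene. Those that touch a synthesis gene had 3.00 (GA20OX3) and 2.63 (GA3OX2), and both breakdown domains touch theirs. Of the 17 regions of the 10 genes, 1 was in the highest 10% of its list, the AZF1 region of GA2OX6.

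Repeated values limit how finely these regions can be ordered. In the FIE list 63.8% of regions share both their fold and their −log10 q with another region. The FIE regions of GA2OX7 share theirs with 21 and 46 regions of the list, themselves included, and that of GA2OX8 is 1 of 4 with the same pair of values. No H3K27me3 region shares both values with another.

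The genes most like GA20OX2 in their 4 lists were looked up over all protein-coding genes, by the mean absolute difference in the percentile of the highest fold per list. They were AT5G07770 (6.13 percentile points), ABIL2 (6.86) and AT5G07760 (8.11), compared over 4 lists. AT5G07770 and ABIL2 have no FIE region within 3 kb. A list without a region was scored as percentile 0, which is close to the FIE percentile of GA20OX2, 16.1. Their rank therefore depends in part on this scoring. AT5G07760 has FIE at a fold of 4.46, AZF1 at 3.04, BPC1 at 3.28 and H3K27me3 at 3.26. It shares its AZF1, BPC1 and H3K27me3 values with AT5G07770, so both genes may have been scored on the same regions there.

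The other oxidases of the family were set beside the 10 genes. Of all 16 listed oxidases, 8 of 9 synthesis genes and 2 of 7 breakdown genes had H3K27me3 within 3 kb (36.7% of all genes), and 3 of 9 and 4 of 7 had FIE (17.0%). All 5 GA20OX genes had the mark in reach, with GA20OX4 (fold 3.15) and GA20OX5 (2.76) covered by it over 100% of the gene and without FIE within 3 kb. GA3OX3 was covered over 100% as well (2.78) and held 2 AZF1 regions (2.80 and 3.14) and 1 BPC1 region (3.38) inside the gene, without FIE. GA3OX4, the neighbour of GA3OX2, was counted through the regions of GA3OX2, which lie 2768 bp (FIE) and 2028 bp (H3K27me3) from GA3OX4. GA2OX3 and GA2OX4 had no region of any list within 3 kb. Within 5 kb the H3K27me3 counts were 8 of 9 synthesis and 4 of 7 breakdown genes (44.9% of all genes), and regions touching the gene gave 5 of 9 and 2 of 7 (19.3%). FIE was within 5 kb of 5 of 9 synthesis genes (55.6%) and 4 of 7 breakdown genes (57.1%), so over the whole family the class shares were nearly equal at that reach, against 23.5% of all genes. FIE touched 1 of 9 synthesis and 3 of 7 breakdown genes (6.72% of all genes).

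The other 27 genes of the pathway had FIE within 3 kb in 6 cases, AZF1 in 9, BPC1 in 4 and H3K27me3 in 16, against 17.0%, 17.8%, 10.5% and 36.7% of all genes. Among 5 early synthesis genes, GA1, which encodes ent-copalyl diphosphate synthase, had FIE (4.27) inside an H3K27me3 domain of 11145 bp (2.80). GA3, for ent-kaurene oxidase, had AZF1 (2.65) and BPC1 (2.67) at 1872 and 1870 bp from GA3, both nearer to the gene IAA28. KAO1 had AZF1 (2.88) inside the gene, and GA2 and KAO2 had no region within 3 kb.

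All 4 genes of the other inactivation routes had H3K27me3 within 3 kb (36.7% of all genes), and 3 of the 4 were touched by it (19.3%). They are the methyltransferase genes GAMT1 (3.28) and GAMT2 (3.11) and the cytochrome P450 genes ELA1 (2.92) and ELA2. ELA2 was reached through the domain and the AZF1 region of its neighbour ELA1. ELA1 had all 4 lists, with FIE at 4.51, AZF1 at 2.79 and BPC1 at 2.43, and GAMT2 had AZF1 (3.36) inside the gene.

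The receptor gene GID1B had the highest FIE fold within 3 kb of any of the 43 listed genes. Its FIE region (chromosome 3, 23289060 to 23290264) had a fold of 9.64, rank 167 of 5006, and covered 45.5% of the gene. A further 3 FIE regions touched GID1B or began 445 bp from it (folds of 4.64 to 4.91). AZF1 (2.96), BPC1 (3.48) and an H3K27me3 region over 91.2% of the gene (2.89) completed the 4 lists. Of the other receptor genes, GID1C had H3K27me3 (2.90) beside it and GID1A had no region. Among the 5 DELLA genes, FIE touched 3, GAI (3.79), RGA (5.35) and RGL2 (3.60), against 6.72% of all genes. H3K27me3 was within 3 kb of 3 DELLA genes, GAI (3.58, rank 239 of 3940), RGL1 (2.67) and RGL3 (2.75), against 36.7% of all genes, and touched 0 of the 5. The midpoint of the domain beside GAI was nearer to 4 other genes. Those of the H3K27me3 regions counted for RGL1, RGL3 and GID1C were also nearer to other genes. GAI also had AZF1 (3.01) without BPC1.

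Of the remaining genes with regions of more than 1 list, the GAMYB gene MYB65 had AZF1 (2.76) and H3K27me3 (2.75), both nearer to other genes, and the gibberellin transporter gene SWEET13 had BPC1 (2.99) and an H3K27me3 domain of 17145 bp (3.10).

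**Figure D5:**
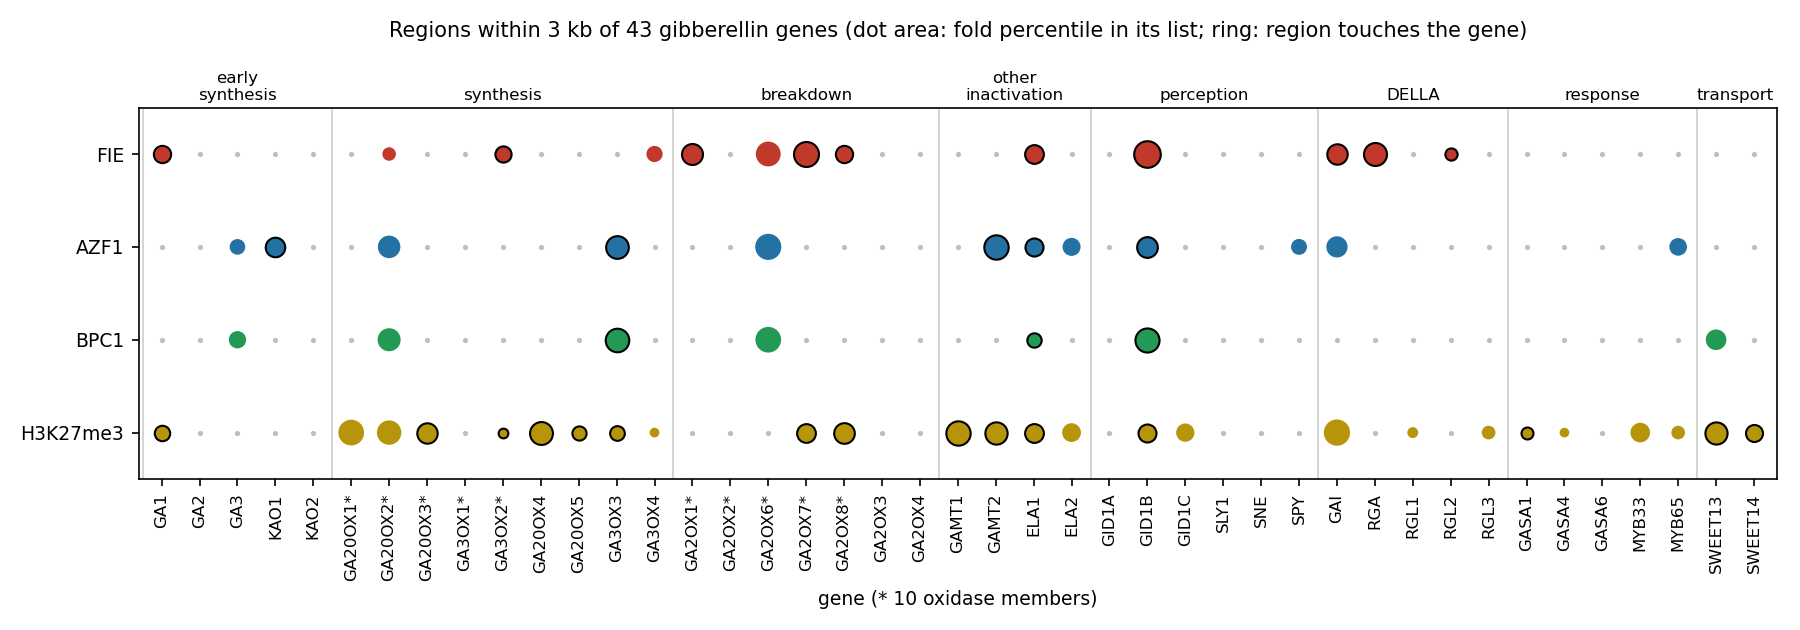
Regions of the 4 lists (rows) within 3 kb of 43 gibberellin genes (columns), grouped by role, with the 10 oxidase members starred. Dot area follows the percentile of the highest fold within its list, rings mark genes that a region of that list touches, and small grey dots mark genes without a region; all 5 GA20OX genes have an H3K27me3 dot, and GID1B has the highest FIE fold, 9.64.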

How the data were processed

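Regions came from 4 deposited lists, 1 per protein or mark. The submitters' processing notes name Bowtie2, bedtools, MACS2 2.1.1.20160309 and TAIR10; settings and the handling of replicates are not stated in these sources. Per region the authors' files hold fold enrichment (a ratio over the control, which the lists do not name), −log10 q and, in the narrow lists, a summit. Depth is unknown without counts, and no interval is given.

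Gene positions came from RefSeq (TAIR10.1, nuclear numbering taken as TAIR10). Narrow summits lay in genes in 41.3% to 50.4% of cases, and less often in each list after shifts of 1 or 2 kb either way. All 43 listed genes matched by locus and symbol. Distances run from gene to region edge, H3K27me3 midpoints replace summits, coordinates are 1-based, and overlap means 1 bp. Python 3.11.15 with pandas 2.3.3 was used, and assignment was tested on simulated data. No sequences, exons or UTRs were used here, so the planned motif search was not run. Members and lists were chosen with earlier results of these data known. Named genes are all oxidases, and other pathway genes with FIE or at least 2 lists. Also named are 3 genes most like the member with most lists, and genes nearer to a member's region. GAMT1, GID1A, GID1C, RGL1, RGL3, GA2, KAO1, KAO2 and the neighbours of pathway genes were named after their values were seen.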

Additional observations from a re-analysis of the deposited data

How the results depend on the processing

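Of 51 recomputed counts of members under other settings, 36 stayed within 1.5 times the value given above and 15 did not. Counting regions that touch the gene itself gave 1 synthesis gene for FIE, 2 synthesis genes for H3K27me3, and 0 synthesis and 0 breakdown genes for AZF1 and for BPC1. A reach of 1 kb gave 2 synthesis genes for H3K27me3 and 0 breakdown genes for AZF1 and for BPC1, and one of 5 kb gave 2 synthesis genes for BPC1. Placing regions by summit or midpoint gave 2 synthesis genes for H3K27me3, and so did keeping regions with no nearer protein-coding gene, since the domains beside GA20OX1 and GA20OX2 then dropped out. Regions above the median −log10 q of their list gave 0 synthesis genes for FIE and for AZF1 and 1 breakdown gene for H3K27me3. The FIE count was higher for breakdown than for synthesis genes under each of these settings. The H3K27me3 count was equal between the classes at the gene, at 1 kb, by midpoint and by nearest gene. Requiring 50% of a FIE region to be covered left its overlap counts at 2 genes for each other list. Background shares over genes of the members' length, 1540 to 4089 bp, were 17.1%, 18.4%, 10.8% and 35.5%. No paired analysis was possible because the lists hold no values per replicate, and for the same reason no replicate could be left out. With 5 genes a class, regions near the −log10 q floor of 10, such as both regions of GA3OX2 and the FIE region of GA2OX8, limit what the counts can show.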
